A study of Mus musculus with 2 samples.

Results

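The genes described here are 10 genes of TNF signalling and of the feedback on NF-kappaB: Tnf, Tnfaip2, Tnfaip3, Tnip1, Nfkbia, Nfkbiz, Nfkb1, Nfkb2, Relb and Tnfrsf1b. They were chosen by gene symbol, and all 10 were found among the 31053 gene rows that both libraries share. Their transcripts were counted as unique molecular identifiers (UMIs, tags that mark single captured RNA molecules) in single cells from the vitreous of C57BL/6 mice. The mice had received an intraocular injection of zymosan, a yeast cell wall preparation, and either normal serum (NRS) or antiserum to the chemokine receptor CXCR2 (aCXCR2). Vitreous fluid and the fluid used to rinse the retina were collected, cells were taken with Ly6G magnetic beads and are labelled Ly6G+, and 1 droplet-based library per treatment was sequenced. The labels give neither the age of the mice nor how many were pooled. No value below has a replicate, no test was possible, and 95% intervals cover counting error only.

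TNF binds receptors that recruit ubiquitin ligases and adaptors and so activate the IkappaB kinase complex. This kinase marks IkappaB proteins for degradation, which frees dimers of Rel proteins to enter the nucleus. Among the genes these dimers switch on are their own inhibitors and precursors, so that the response limits itself, and in neutrophils and macrophages that sense fungal cell walls the pathway is a main route to cytokine production.

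The NRS library held 7314 barcodes and 61386486 UMIs, and the aCXCR2 library 5551 barcodes and 85748842 UMIs. After removal of barcodes with under 500 UMIs, under 200 genes or over 10% mitochondrial UMIs, 5655 NRS cells (median 4759 UMIs) and 4826 aCXCR2 cells (median 10383.5 UMIs) remained. Clustering without the 10 genes gave 18 clusters. Of these, 8 were neutrophil-like by their markers (2862 NRS and 2610 aCXCR2 cells), 4 macrophage-like (623 and 1795 cells) and 2 photoreceptor-like (818 and 272 cells), although the label of both libraries is Ly6G+ cells. Levels of Ly6g itself were 14.7 and 120 CPM (UMIs of the gene for every 1000000 UMIs) in neutrophil-like cells and 0.189 and 2.16 CPM in macrophage-like cells of the NRS and aCXCR2 library. Different clusters held most of the neutrophil-like class in each library: those numbered 0, 7, 8 and 13 for NRS, and 4, 5 and 10 for aCXCR2. The unnamed cluster 2, which scored highest for neutrophil markers but under the limit for a name, held 15.5% of kept NRS and 1.10% of kept aCXCR2 cells. Clusters 0 and 7 were named with scores of 0.426 and 0.427, near the limit of 0.4. Their 10 leading genes held 0 neutrophil markers. They made up 33.3% and 20.3% of the class in NRS, and 2.68% and 2.34% in aCXCR2. The class held 1794 NRS cells at clustering resolution 1.5 and 1449 without the highest doublet scores. A barcode of the other library was carried by 58 kept NRS cells, which held 8.53% of kept NRS UMIs, and by 59 kept aCXCR2 cells, which held 0.671%. Values without them are given for Tnf in neutrophil-like cells, for Tnfaip3 in macrophage-like cells and in part over all kept cells. Other values in these classes also shifted slightly and are not given.

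Because NF-kappaB dimers switch on genes of their own inhibitors and precursors, the promoters with the most matches to the NF-kappaB consensus are shown. They were read from RefSeq on build GRCm38.p6, from 250 bases before to 50 bases after a start site of the gene. Some genes have several such windows, and the one with the most matches is printed. Windows are written 5′ to 3′ on the strand of the gene, with each match on either strand in capitals. The table of promoters holds 7 of the 10 genes, and of these Nfkb2, Tnip1, Tnfaip3 and Nfkbia had at least 1 match.
Nfkb2 (chr19:46304487-46304786, plus strand): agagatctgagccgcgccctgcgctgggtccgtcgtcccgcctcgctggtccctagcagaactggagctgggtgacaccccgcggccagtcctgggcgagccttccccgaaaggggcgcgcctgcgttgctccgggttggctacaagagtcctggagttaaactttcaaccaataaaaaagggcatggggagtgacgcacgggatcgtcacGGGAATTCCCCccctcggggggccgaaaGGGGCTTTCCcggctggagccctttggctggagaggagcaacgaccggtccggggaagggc
Tnip1 (chr11:54962891-54963190, minus strand): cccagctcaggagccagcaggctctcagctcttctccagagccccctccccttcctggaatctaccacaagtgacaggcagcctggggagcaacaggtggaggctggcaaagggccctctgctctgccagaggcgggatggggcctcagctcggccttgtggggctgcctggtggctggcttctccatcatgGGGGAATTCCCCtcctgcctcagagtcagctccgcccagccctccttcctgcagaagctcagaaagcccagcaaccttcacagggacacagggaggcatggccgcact
Tnfaip3 (chr10:19015361-19015660, minus strand): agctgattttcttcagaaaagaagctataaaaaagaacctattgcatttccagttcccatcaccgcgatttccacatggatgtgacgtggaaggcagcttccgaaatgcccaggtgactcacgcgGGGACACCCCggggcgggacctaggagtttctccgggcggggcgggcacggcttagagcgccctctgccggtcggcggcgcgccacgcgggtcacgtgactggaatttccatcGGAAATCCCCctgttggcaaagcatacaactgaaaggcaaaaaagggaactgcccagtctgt
Nfkbia (chr12:55492598-55492897, minus strand): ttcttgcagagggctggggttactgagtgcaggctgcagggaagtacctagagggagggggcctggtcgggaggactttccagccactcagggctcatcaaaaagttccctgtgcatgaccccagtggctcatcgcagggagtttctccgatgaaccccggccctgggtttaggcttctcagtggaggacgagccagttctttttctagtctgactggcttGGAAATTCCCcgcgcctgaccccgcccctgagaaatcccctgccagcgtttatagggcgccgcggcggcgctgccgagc
The printed Nfkb2 window lies inside the span of the gene given below, as does almost all of the Tnfaip3 window. Matches in the Nfkb2 and Tnip1 windows overlap around 1 palindromic core, which reads the same on both strands. The core begins at position -39 from the start site used for Nfkb2 and at position -57 from that used for Tnip1. Nfkb2 had a further match at position -11. Tnfaip3 had a match at position -125 and another at -12, and Nfkbia had 1 at position -29. The 7 genes have 10 windows in the table, and the consensus was present in 6 of these. It was present in 1480 of 32851 promoters of this length in the table (4.51%). Another Tnfaip3 window, not printed, had no match to it. The looser motif GGNNNTTCC was searched on both strands and overlaps the consensus where that ends in TTCC or begins in GGAA. It was present in 9 of the 10 windows (6 of the 7 genes) and in 18.5% of all promoters. Tnf and Tnfaip2 had 1 match each to the looser motif in these windows and none to the consensus, and Tnfrsf1b had none to either. A match is a run of letters and not a measured binding site.

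All 10 genes were at higher CPM in neutrophil-like than in macrophage-like cells of the same library, and the widest difference was that of Tnf. CPM is relative to total UMIs, and macrophage-like cells were deeper. Their median was 23392 UMIs per cell in NRS and 29999 in aCXCR2, against 4558.5 and 7679.5 in neutrophil-like cells. An order by CPM is therefore not an order by UMIs per cell. In the NRS library 9 of 10 genes were at least 2-fold higher in neutrophil-like cells, against 24.9% of the 3483 genes that reached 50 CPM in either class. In the aCXCR2 library 7 of 10 were, where 14.8% of 3135 genes were. The genes within 2-fold were those of Rel proteins: Nfkb1 in NRS, and Nfkb1, Nfkb2 and Relb in aCXCR2. In the plot of levels by cell class, the 10 genes lie above the 50 CPM line in neutrophil-like cells of both libraries.

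**Figure D1:**
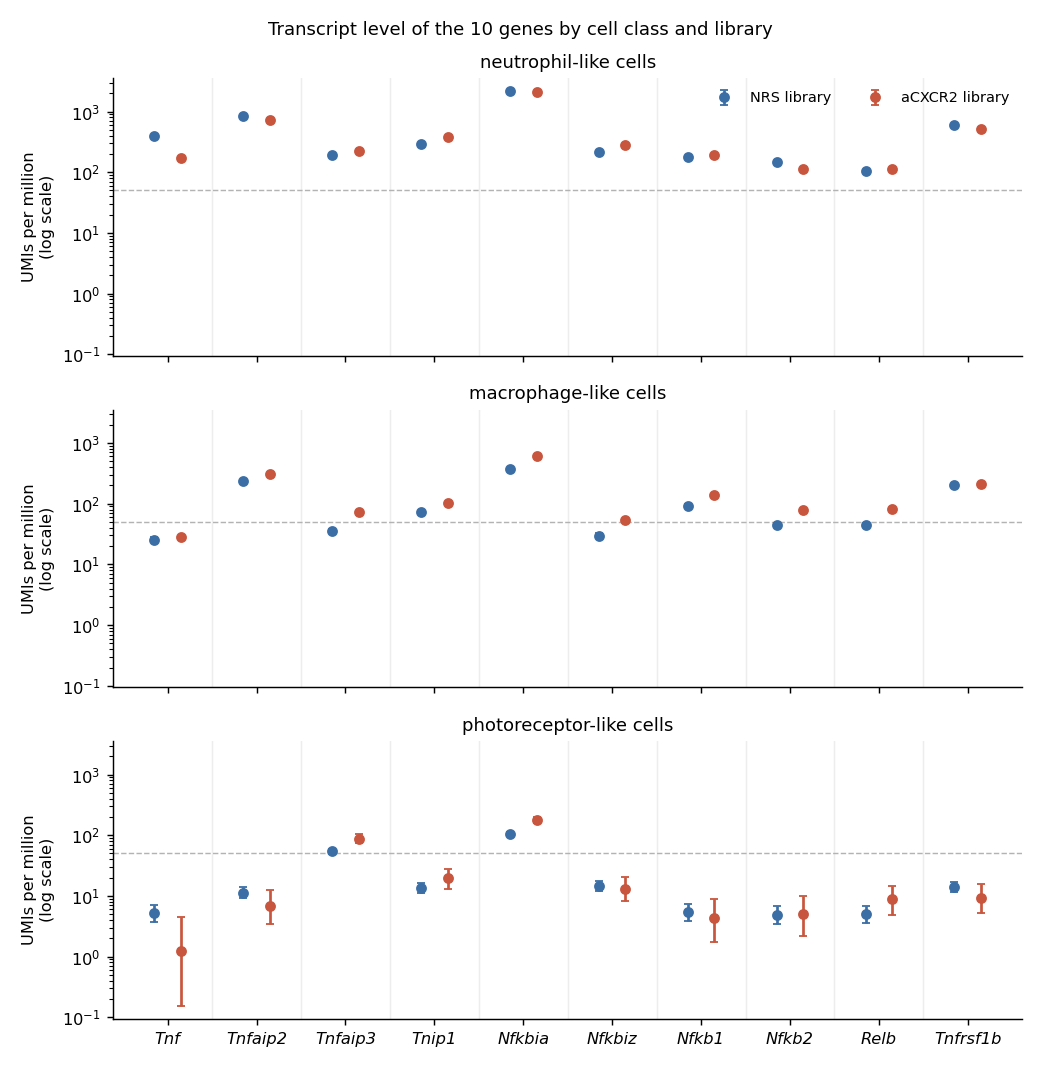
Level of each of the 10 genes in CPM (log scale) in neutrophil-like, macrophage-like and photoreceptor-like cells; blue points are the NRS library, red points the aCXCR2 library, bars the exact Poisson 95% interval of the count, and the dashed line 50 CPM. Tnf in neutrophil-like cells is at 397 CPM in NRS and 169 in aCXCR2, and in macrophage-like cells at 25.6 and 27.9 CPM.

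Tnf encodes the ligand (chr17:35199381-35202007, minus strand, GENCODE on GRCm38, as for all gene positions below). Its level was 397 CPM in neutrophil-like cells of NRS (95% interval 387 to 408) and 169 CPM in those of aCXCR2 (163 to 174). In macrophage-like cells it was 25.6 CPM in NRS and 27.9 in aCXCR2, intervals that overlap, and in photoreceptor-like cells 5.18 and 1.25 CPM, the latter from 2 UMIs. Tnf was thus 15.5-fold higher in neutrophil-like than in macrophage-like cells of NRS and 6.05-fold higher in aCXCR2. Neutrophil-like cells held 71.8% of the Tnf UMIs of all kept NRS cells and 69.2% of those of aCXCR2.

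Tnfrsf1b encodes TNF receptor 2 (chr4:145213463-145246870, minus strand). It stood at 596 CPM in neutrophil-like cells of NRS and 510 CPM in those of aCXCR2, against 201 and 213 CPM in macrophage-like cells. The neutrophil-like level was 2.97-fold the macrophage-like one in NRS and 2.40-fold in aCXCR2. Photoreceptor-like cells were at 14.0 and 9.40 CPM.

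Nfkbia encodes IkappaB-alpha, the inhibitor that NF-kappaB restores within its own response (chr12:55489410-55492647, minus strand). Its level in neutrophil-like cells was 2150 CPM in NRS and 2077 in aCXCR2. In macrophage-like cells it was 370 and 606 CPM, so that the ratio between the classes was 5.81-fold in NRS and 3.43-fold in aCXCR2. Nfkbiz encodes IkappaB-zeta, a nuclear member of that family that acts as a cofactor for a subset of targets (chr16:55811375-55838899, minus strand). It was at 212 and 279 CPM in neutrophil-like cells and at 29.8 and 53.5 CPM in macrophage-like cells, 7.13-fold and 5.23-fold apart.

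Tnfaip3 encodes A20, an enzyme that edits ubiquitin chains and shuts off signalling from the receptor (chr10:19000910-19015657, minus strand). It was at 192 CPM in neutrophil-like cells of NRS and 225 CPM in those of aCXCR2, and at 35.2 and 73.4 CPM in macrophage-like cells. Tnip1 encodes ABIN1, a ubiquitin-binding partner of A20 (chr11:54910785-54962917, minus strand). Its levels were 297 and 375 CPM in neutrophil-like cells and 72.7 and 102 CPM in macrophage-like cells. Tnfaip2 is a TNF-induced gene whose protein has been tied to membrane protrusions (chr12:111442469-111455018, plus strand). It stood at 828 and 724 CPM in neutrophil-like cells and at 240 and 314 CPM in macrophage-like cells.

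In aCXCR2 the 3 genes of Rel proteins had the smallest ratios between the classes of the 10 genes; in NRS this held for Nfkb1 and Relb but not for Nfkb2, whose ratio was above the 2.97-fold of Tnfrsf1b. Nfkb1, which encodes p105 and its product p50 (chr3:135584655-135691547, minus strand), was at 179 and 193 CPM in neutrophil-like cells and at 93.3 and 138 CPM in macrophage-like cells, 1.92-fold and 1.40-fold apart. Nfkb2, which encodes p100 and its product p52 (chr19:46304320-46312385, plus strand), was at 145 and 114 CPM against 43.8 and 77.7 CPM, 3.32-fold apart in NRS and 1.47-fold in aCXCR2. Relb, the partner of p52 in the non-canonical pathway (chr7:19606217-19629438, minus strand), was at 105 and 113 CPM against 43.9 and 81.7 CPM, 2.39-fold and 1.38-fold apart.

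Tnfaip3 was the gene of the 10 that did not follow the order neutrophil-like, macrophage-like, photoreceptor-like in every library. Its level in photoreceptor-like cells was 54.2 CPM in NRS (interval 49.2 to 59.6, 429 UMIs) and 87.1 CPM in aCXCR2 (73.3 to 103, 139 UMIs). In NRS that was above the 35.2 CPM of macrophage-like cells (32.3 to 38.2), and in aCXCR2 its interval reached the macrophage-like level of 73.4 CPM (71.2 to 75.7). The smaller photoreceptor-like cluster 15 (90 NRS cells) held 128 CPM. Tnfaip3 also differed from Nfkbiz in its proportion by class. Tnfaip3 UMIs were 0.902 times Nfkbiz UMIs in neutrophil-like and 1.18 times in macrophage-like cells of NRS, but 3.73 times (3.03 to 4.62) in photoreceptor-like cells. In aCXCR2 the same ratio was 0.803, 1.37 and 6.62 (4.17 to 11.03). The part of RNA released into the droplets in these levels was not tested.

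In neutrophil-like cells Tnf was the 1 gene of the 10 that differed at least 2-fold between the libraries, and it was lower in aCXCR2. Its log2 ratio, aCXCR2 over NRS, was -1.24 (interval -1.29 to -1.18), a 2.35-fold difference. Among the 3107 genes that reached 50 CPM in either library, 12.7% were lower in aCXCR2 by 2-fold or more and 2.96% higher. The other 9 genes had log2 ratios from -0.35 (Nfkb2) to 0.40 (Nfkbiz): Tnip1 was at 0.34, Tnfaip3 at 0.23, Relb at 0.11, Nfkb1 at 0.10, Nfkbia at -0.05, Tnfaip2 at -0.19 and Tnfrsf1b at -0.22. The median of the 10 was 0.03, and that of all 3107 genes was -0.43.

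The scale of these ratios depended on how the libraries were set against each other. Neutrophil markers, led by S100a8 (21158 CPM in NRS and 76952 in aCXCR2), summed to 47266 CPM in neutrophil-like cells of NRS and 167793 CPM in those of aCXCR2. Scaling by TMM factors raised every log2 ratio in the class by 0.65 and brought the median of all genes to 0.30. On that scale Tnf was at -0.58 and no longer 2-fold lower, Tnfaip2, Nfkbia, Nfkb2 and Tnfrsf1b took the opposite sign, and Nfkbiz passed 2-fold at 1.05. Relative to the median of all genes, on the scale of total UMIs, Tnf was at -0.80 and the other 9 genes were between 0.09 (Nfkb2) and 0.83 (Nfkbiz).

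Other transcripts moved with these differences. In neutrophil-like cells the 9 rod markers summed to 947 CPM in NRS and 89.2 in aCXCR2, with none at 0, and over the clusters of the class to between 609 and 1229 CPM in NRS and between 77.1 and 111 CPM in aCXCR2. The 17 macrophage markers summed to 6847 and 4577 CPM, with none at 0 and 11 of the 17 higher in aCXCR2. The heat shock gene Hspa1a was at 253 and 20.2 CPM. The median depth was 4558.5 UMIs per neutrophil-like cell in NRS and 7679.5 in aCXCR2. Their part in the results was not tested.

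Over the 12 combinations of neutrophil-like cluster and library with at least 50 cells, Tnf varied most from cluster to cluster. In NRS it ran from 112 CPM in cluster 13, led by Cxcr2 and Hdc, to 601 CPM in cluster 0, led by the chemokine gene Ccl3 and by Gadd45b, a 5.37-fold range. In aCXCR2 it ran from 43.0 CPM in cluster 10, led by Retnlg and S100a9, to 570 CPM in cluster 0, a 13.3-fold range. Cluster 0 made up 33.3% of neutrophil-like cells in NRS and 2.68% in aCXCR2. Tnf was among its 10 leading genes. Tnf had not been used for clustering, but NF-kappaB target genes such as Ccl3 were not left out of it.

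The other 9 genes had their highest level outside cluster 0, except that in aCXCR2 Nfkb2 (175 CPM) and Tnfrsf1b were highest in cluster 0, as Tnf was. Cluster 8, led by G0s2 and Il1rn and mostly of NRS, held the highest NRS level of 8 genes: Tnfaip3 (298 CPM), Tnip1 (409), Nfkbia (2888), Nfkbiz (355), Nfkb1 (289), Nfkb2 (191), Relb (146) and Tnfrsf1b (758). Cluster 5, mostly of aCXCR2, held the highest aCXCR2 level of 6 genes: Tnfaip3 (398 CPM), Tnip1 (472), Nfkbia (3092), Nfkbiz (444), Nfkb1 (267) and Relb (146). Tnfaip2 had its highest NRS level, 1368 CPM, in cluster 13, where Tnf and Tnip1 (115 CPM) were lowest. In aCXCR2 its highest level, 926 CPM, was in cluster 10, where Tnf and Tnip1 (166 CPM) were again lowest. The map of levels by cluster shows both patterns.

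**Figure D2:**
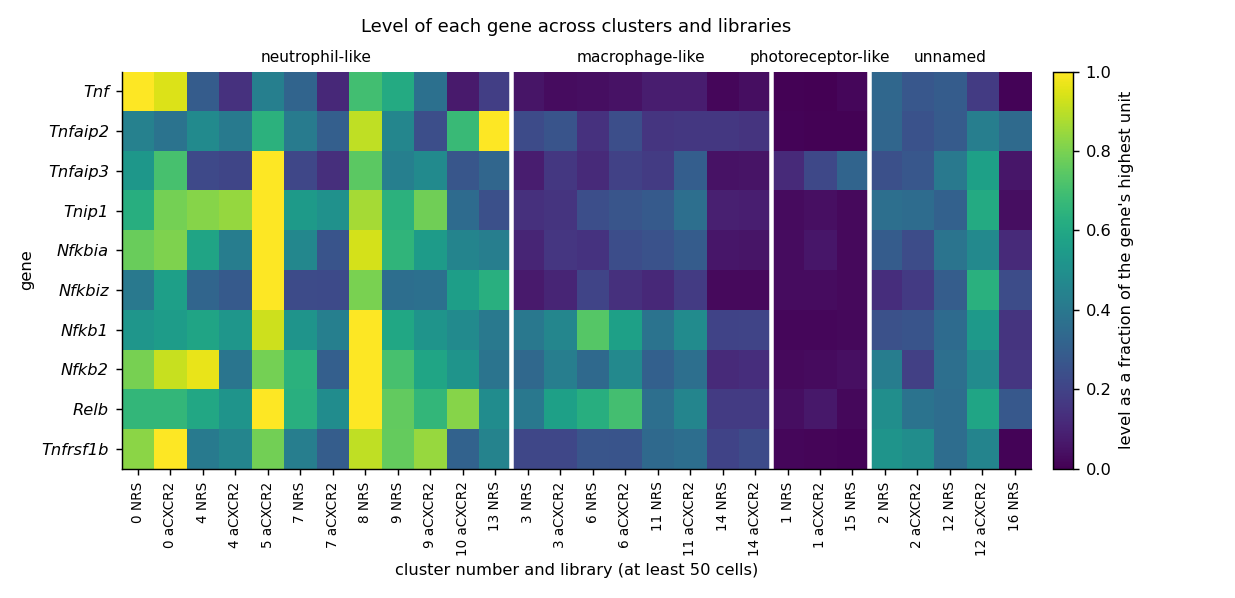
Level of each gene (rows) in each cluster and library with at least 50 cells (columns), as a fraction of the highest level of that gene, grouped by cell class; the colour bar runs from 0 to 1. Tnf peaks in cluster 0, Tnfaip2 in cluster 13, and most inhibitor and Rel genes in clusters 5 and 8.

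Within single neutrophil-like clusters Tnf was lower in aCXCR2 in all 4 clusters with 50 or more cells of both libraries. In 3 of the 4 the interval did not include 0. It was at 193 CPM in NRS and 68.7 in aCXCR2 in cluster 7 (log2 ratio -1.49, 61 aCXCR2 cells), at 175 and 85.9 CPM in cluster 4 (-1.03, 57 NRS cells), and at 368 and 222 CPM in cluster 9 (-0.73, interval -0.90 to -0.55, 247 and 334 cells). In cluster 0 it was at 601 and 570 CPM, a log2 ratio of -0.08 whose interval, -0.28 to 0.12, includes 0. Nfkb2 was at least 2-fold lower in aCXCR2 with Tnf in cluster 4 (185 and 74.2 CPM, where 5.57% of 3269 genes were) and in cluster 7 (122 and 57.6 CPM, where 4.46% of 3564 genes were). Tnfaip2 was lower in all 4 clusters, most in cluster 9 at 628 and 329 CPM (log2 ratio -0.93). Tnfrsf1b, lower in the class as a whole, was higher in 3 of the 4 clusters, with log2 ratios of 0.28 in cluster 0 and 0.15 in clusters 4 and 9. The interval in cluster 4 includes 0, and in cluster 7 the ratio was -0.55. Nfkb1 and Relb, higher in the class, were lower in 3 of the 4, with intervals that include 0. For Tnfaip2, Tnip1, Nfkb1 and Relb the class value lay above that of each of the 4 clusters.

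Leaving out cluster 0 brought the log2 ratio of Tnf in the class to -0.82, and giving the 4 shared clusters equal weight brought it to -0.50, so that the 2-fold call was lost in both. Without the barcodes found in both libraries it was -1.23.

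**Figure D3:**
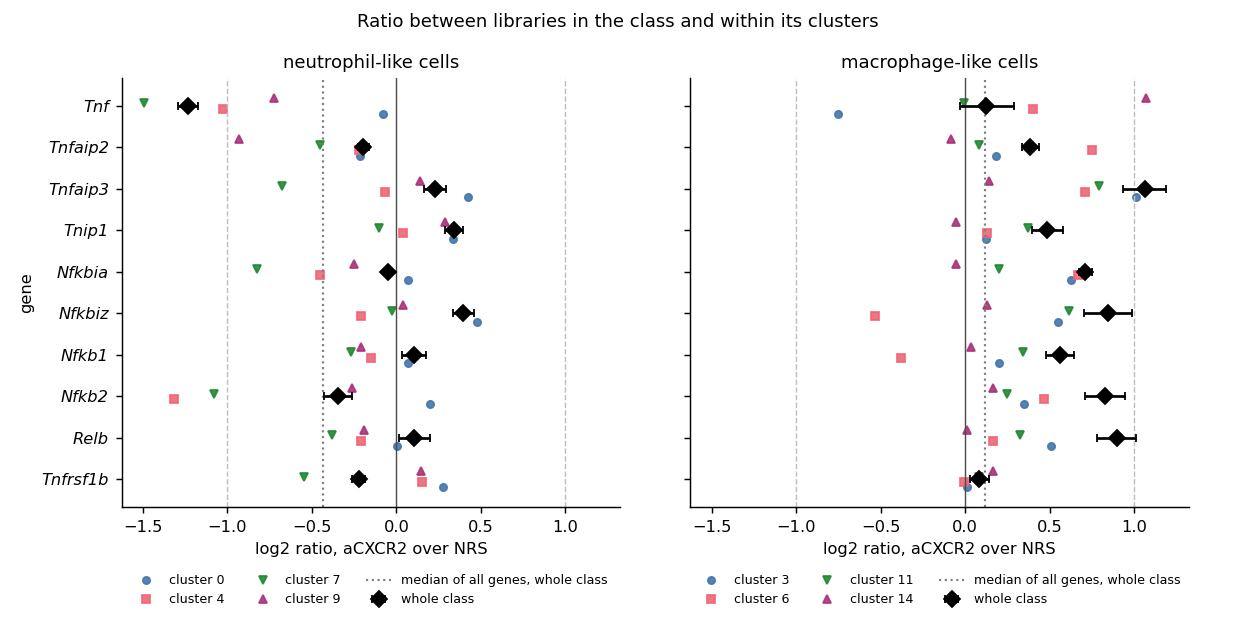
Log2 ratio, aCXCR2 over NRS, of each gene in neutrophil-like (left) and macrophage-like (right) cells: black diamonds are the whole class with its 95% counting interval, coloured symbols single clusters with 50 or more cells of both libraries, dashed lines 2-fold and the dotted line the median of all genes in the class. In macrophage-like cells the class value of 7 genes lies above those of all 4 clusters.

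In macrophage-like cells Tnfaip3 was the 1 gene of 9 tested that was at least 2-fold higher in aCXCR2, and none was at least 2-fold lower. Tnf was under 50 CPM in both libraries and is not among the 9. Of 2856 genes tested in this class, 4.48% were higher in aCXCR2 by 2-fold or more and 2.42% lower. Tnfaip3 was at 35.2 CPM in NRS and 73.4 in aCXCR2, a log2 ratio of 1.06 (0.93 to 1.19). Relb (0.90), Nfkbiz (0.84), Nfkb2 (0.83) and Nfkbia (0.71) followed, then Nfkb1 (0.56), Tnip1 (0.48) and Tnfaip2 (0.39), and Tnfrsf1b was lowest at 0.08. The median of the 9 was 0.71 and that of all genes tested 0.11. TMM factors moved these ratios by -0.005 and changed no sign. Without the barcodes found in both libraries Tnfaip3 was at 1.05.

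The makeup of the class differed with the library. Cluster 14, led by Spp1 and Gpnmb, made up 38.5% of macrophage-like cells in NRS and 5.74% in aCXCR2. It had the lowest NRS level of 9 of the 10 genes, all but Tnfaip2, among them Nfkbia at 187 CPM, Tnfaip3 at 18.9 CPM and Tnf at 10.2 CPM. Cluster 6, led by S100a4 and the MHC class II gene H2-Eb1, made up 8.67% and 36.4%, and had the highest NRS levels of Nfkbiz (90.3 CPM), Nfkb1 (213), Nfkb2 (65.2) and Relb (91.3). Cluster 11, led by Cxcl3 and Arg1, had the highest NRS levels of Tnf (49.1 CPM), Tnfaip3 (69.0), Tnip1 (134), Nfkbia (782) and Tnfrsf1b (286).

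Ratios within those clusters were smaller than in the class as a whole for 7 of the 10 genes, whose class value lay above that of each of the 4 clusters. For Relb the class value of 0.90 stood against 0.01 to 0.51 within clusters, and for Nfkb2 the value of 0.83 against 0.17 to 0.46. Tnfaip3 was higher in aCXCR2 in all 4 clusters, at 1.01 in cluster 3 (32.3 and 65.1 CPM), 0.79 in cluster 11 (69.0 and 120 CPM), 0.71 in cluster 6 (46.8 and 76.3 CPM) and 0.14 in cluster 14 (18.9 and 20.8 CPM). The interval of the last, -0.25 to 0.52, includes 0. In cluster 3, led by Ccl8 and Selenop, Tnfaip3 passed 2-fold, where 3.53% of 2945 genes did. Nfkbia was at 320 and 494 CPM in cluster 3, at 457 and 726 CPM in cluster 6, at 782 and 898 CPM in cluster 11 and at 187 and 180 CPM in cluster 14. Nfkbiz and Nfkb1 were lower in aCXCR2 in cluster 6, with log2 ratios of -0.54 and -0.38 (54 NRS cells).

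With equal weight for each of the 4 clusters the median of the genes in macrophage-like cells was 0.26 and Tnfaip3 stood at 0.75, under 2-fold. In the same class the 14 neutrophil markers summed to 3149 CPM in NRS and 5188 in aCXCR2, with none at 0. The 17 macrophage markers summed to 81792 and 52746 CPM, the 9 rod markers to 329 and 57.3 CPM, with none of the 9 higher in aCXCR2, and the 6 lens markers to 59.97 and 2.27 CPM. Apoe was at 28415 and 11891 CPM. Their part in the result was not tested.

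Over all kept cells, the value a measurement on the pooled cells would give, Tnf was at 163 CPM in NRS and 69.0 in aCXCR2 (log2 ratio -1.24), the 1 gene of the 10 past 2-fold. Of 3549 genes, 11.2% were lower by 2-fold or more and 4.79% higher. The other genes lay between -0.09 (Tnfrsf1b) and 0.60 (Relb). Macrophage-like cells were 11.02% of kept cells in NRS and 37.2% in aCXCR2, and they held 30.5% and 61.6% of Nfkb1 UMIs. Without barcodes found in both libraries the NRS level of Tnf was 177 CPM and the log2 ratio -1.35.

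Shares of cells with a transcript were compared after each cell had been thinned to 1000 UMIs, since the libraries differ in depth. Tnf was found in 20.8% of 2731 neutrophil-like NRS cells (19.3 to 22.3%) and in 10.7% of 2572 aCXCR2 cells (9.56 to 12.0%). Without thinning the shares were 45.8% and 38.8%. In photoreceptor-like cells, whose median depths were 3735 and 4747 UMIs, the thinned share was 0.416% and 0.461%. Shallower cells left out numbered 131 and 38 in the neutrophil-like class and 97 and 55 in the photoreceptor-like class.

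Nfkbia was found in 68.3% and 71.6% of neutrophil-like cells. In photoreceptor-like cells it was found in 9.71% and 18.0%, and the intervals of the neutrophil-like shares overlap (66.5 to 70.0% and 69.8 to 73.3%). Tnip1 was found in 23.9% and 29.5%, and Nfkbiz in 16.4% and 20.1%, pairs whose intervals do not overlap. Tnfrsf1b went the other way with 38.0% and 33.3%, and its intervals do not overlap either. The intervals of Tnfaip2 (46.1% and 43.5%), Tnfaip3 (16.2% and 17.4%), Nfkb1 (13.9% and 15.9%), Nfkb2 (13.1% and 11.5%) and Relb (9.81% and 10.2%) do overlap. In photoreceptor-like cells Tnfaip3 was found in 5.69% and 5.99%. The other 7 genes were found there in 0.416% (Nfkb2) to 1.80% (Tnip1) of NRS cells and in up to 2.30% (Tnip1) of aCXCR2 cells. Tnfaip2 and Nfkb1 were found in 0 of 217 aCXCR2 cells, an interval that reaches 1.69%. In macrophage-like cells, 13 and 7 shallower cells left out, Nfkbia was found in 33.4% of 610 NRS and 42.7% of 1788 aCXCR2 cells, and Tnfaip2 in 17.7% and 24.4%. Tnf was found in 2.62% and 1.96% of macrophage-like cells. Without thinning, Nfkb1 was found in 90.5% of macrophage-like and 61.6% of neutrophil-like cells of aCXCR2, and Nfkbia in 98.3% and 95.7%. Tnf went the other way there, at 25.8% and 38.8%.

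Counted together, 3 or more of the 10 genes were found in 49.1% of neutrophil-like cells of NRS (47.2 to 51.0%) and 49.0% of those of aCXCR2 (47.1 to 51.0%). In macrophage-like cells this share was 10.98% (8.61 to 13.7%) and 15.3% (13.7 to 17.1%). It was 0.139% and 0.461% in photoreceptor-like cells, from 1 cell in each library.

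**Figure D4:**
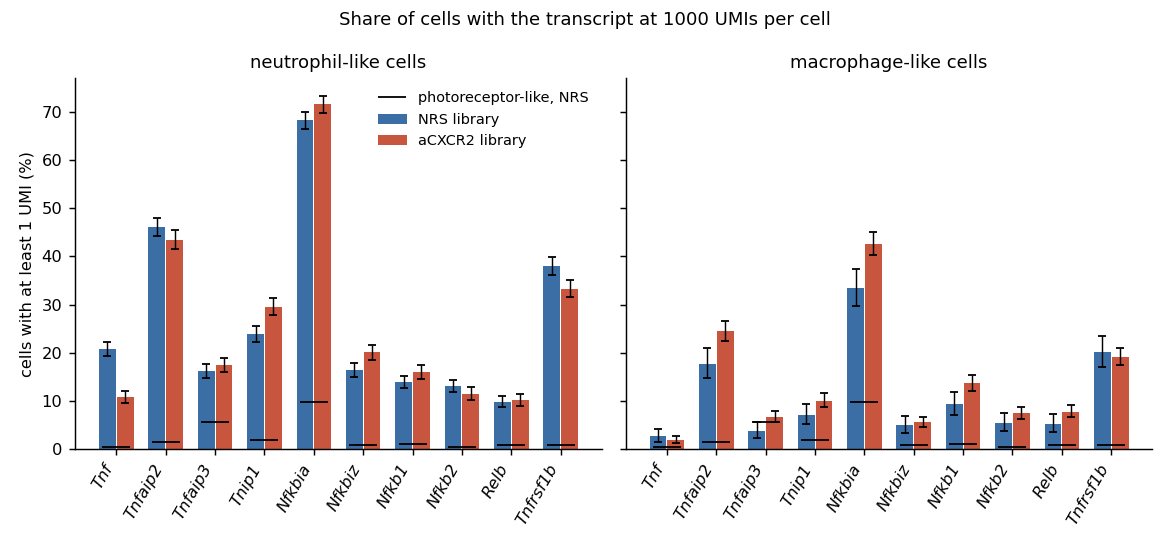
Share of cells with at least 1 UMI of each gene after thinning to 1000 UMIs per cell, in neutrophil-like (left) and macrophage-like (right) cells; blue bars are NRS, red bars aCXCR2, error bars exact Clopper-Pearson 95% intervals and black dashes the share in photoreceptor-like cells of NRS. Tnf is at 20.8% of neutrophil-like cells in NRS and 10.7% in aCXCR2, and Tnfaip3 in macrophage-like cells lies near the photoreceptor-like dash.

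The wider pathway was read from lists of its parts. In neutrophil-like cells Tnf was the 1 component of signalling among those tested, from ligands to feedback enzymes, that was 2-fold apart by total UMIs. The ratios given below for this class are on that scale, where the median of all genes was -0.43. TMM factors raised every ratio in the class by 0.65, so a negative value below does not by itself mean a lower level. Of 6 genes tested from the kinase list none passed 2-fold, with Chuk, which encodes IKK-alpha, at -0.82 (59.7 and 33.9 CPM). Tank, in this list though it does not encode a kinase, was at -0.46. Tbk1 was at -0.37 and Ikbkb, which encodes IKK-beta, at -0.31. None of the 5 Rel genes passed 2-fold, with Rela at -0.41 and Rel at -0.36. Of 6 IkappaB genes, Nfkbib was at -0.73, Nfkbid at -0.50, Nfkbie at -0.30 and Bcl3 at 0.35. None of the 4 TNF receptor genes tested passed, with Tnfrsf1a, TNF receptor 1, at 0.46 (150 and 207 CPM), Fas at 0.39 and Tnfrsf23 at -0.40.

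Adam17, the protease that sheds TNF, was at -0.46 (140 and 102 CPM), and Rhbdf2, which escorts it to the surface, at 0.10. Ltb, the other ligand tested, was at 0.23. Among 6 adaptor and ubiquitin ligase genes Ripk1 was at 0.64, Birc3 at 0.37, Tab2 at -0.29 and Rbck1 at -0.45. Of 11 feedback enzymes and RNA decay factors none passed 2-fold, and their median was 0.23: N4bp1 was at 0.46, Zfp36, which encodes an RNA-binding protein that destabilises Tnf mRNA, at 0.34 (384 and 484 CPM), Dusp1 at 0.32 and Itch at -0.37.

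Among 25 target genes tested in neutrophil-like cells 3 were higher and 3 lower in aCXCR2 by 2-fold or more, where 2.96% and 12.7% of all genes were. The acute phase gene Saa3 was at 2618 and 15095 CPM (log2 ratio 2.53), Nos2, which encodes inducible nitric oxide synthase, at 111 and 303 CPM (1.45), and Irf1 at 120 and 272 CPM (1.19). The chemokine gene Cxcl1 was lower, at 83.4 and 18.9 CPM (-2.14), as were Ccl2 and Bcl2a1b.

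In macrophage-like cells 6 of the 11 feedback enzymes and RNA decay factors tested were at least 2-fold higher in aCXCR2, and their median was 1.01. Of all genes 4.48% were, and the median was 0.11. Dusp1, a phosphatase acting on MAP kinases, was at 38.7 and 119 CPM (1.62), Tnip3, a relative of Tnip1, at 28.3 and 72.2 CPM (1.35), N4bp1 at 120 and 292 CPM (1.29) and Zfp36 at 84.7 and 192 CPM (1.18), with Tnfaip3 and Irak3 the others. The immediate early gene Fos, in none of the lists, was at 84.9 and 202 CPM in this class.

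The 4 IkappaB genes tested had a median of 0.83, with Nfkbie at 0.99 and Bcl3 at 0.82, and the 4 Rel genes a median of 0.69, with Rela at 0.48. Genes of the kinase list lay between 0.35 (Tbk1) and 0.43 (Tank), with Ikbke at 0.37 and Ikbkb at 0.43. Traf1 and Birc3 were both at 0.93, Cflar at 0.38 and Ripk1 at 0.31. Of the receptors Tnfrsf9 was at least 2-fold lower (95.7 and 42.6 CPM, -1.17), Tnfrsf21 was at -0.69, Tnfrsf1a at 0.43 and Ltbr at 0.28. Tnfsf12, the 1 ligand tested, was at -0.43, Adam17 at 0.24 and Rhbdf2 at 0.30.

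Of 23 target genes tested in macrophage-like cells 8 were higher in aCXCR2 by 2-fold or more, where 4.48% of all genes were. Ccl5 was at 93.7 and 750.2 CPM, Saa3 at 12110 and 39544 CPM (1.71) and Il1b at 576 and 1775 CPM (1.62). With equal weight per cluster the pathway genes outside the 10 at least 2-fold higher numbered 3, against 13 by summed UMIs. Among all genes tested the number also fell, to 26 of 2790 with equal weight from 128 of 2856 by summed UMIs.

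**Figure D5:**
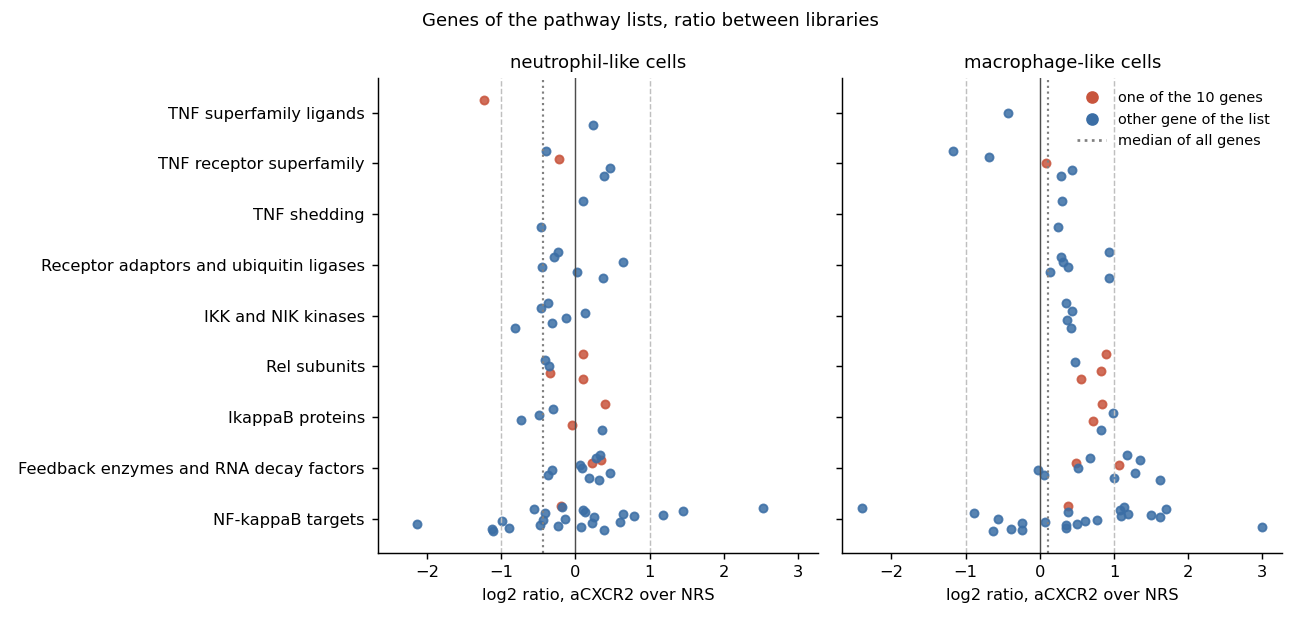
Log2 ratio, aCXCR2 over NRS, of every gene of 9 pathway lists that reached 50 CPM in either library, in neutrophil-like (left) and macrophage-like (right) cells; red points are among the 10 genes, blue points other genes of the list, dashed lines 2-fold and the dotted line the median of all genes. In macrophage-like cells 6 genes of the list of feedback enzymes and RNA decay factors lie to the right of 2-fold, and in neutrophil-like cells none does.

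Levels were also correlated across 28 combinations of cluster and library with at least 50 cells, which share libraries and cell classes. Of the 45 pairs of the 10 genes, 42 had a Pearson correlation of log2(CPM + 10) above 0.5, and the median was 0.83. The same share was not taken over all pairs of genes. All 10 genes were also at higher CPM in neutrophil-like than in macrophage-like cells, so the count does not single these genes out. The genes whose levels followed Tnf most closely among 5381 were Ccrl2 (0.96), Ccl3 (0.96), Tmem38b (0.94), Il1rn (0.93) and Tnfrsf23 (0.93). Those most like Nfkbia were Ehd1 (0.96), Zc3h12a (0.95), Rgcc (0.94), Tnip1 (0.94) and Mapkapk2 (0.94). Nfkb2 was followed by Ehd1 (0.96), its partner gene Relb (0.94), Marcksl1 (0.94), Nfkbia (0.93) and Mapkapk2 (0.93). Tnfrsf1b was followed by the leukocyte genes Cd53 (0.97), Ptafr (0.97), Ostf1 (0.97), Ncf4 (0.96) and Slpi (0.96), none of which is among the neighbours of the other 3.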

How the data were processed

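The deposited matrices hold raw UMI counts, whole numbers with a row per gene and a column per barcode, per the file headers, which also give software version 3.0.0. The submitters' processing notes list a human genome build, Cell Ranger and Seurat, with no version of the tools. The gene IDs are those of mouse, and the sources used here do not name a mouse build. The 10 genes and the pathway lists were chosen with earlier results of these data known.

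Both libraries were clustered together in scanpy 1.11.5 from 2000 variable genes that left out the 10 genes and the lists of pathway components, with Leiden clustering (leidenalg 0.10.2) at resolution 1 on 15 neighbours in 30 principal components, without scaling genes or correcting for library. Scrublet called 0 NRS and 4 aCXCR2 cells doublets. An assumed rate of 0.8% doublets for every 1000 kept cells would give 256 and 186. No cell was removed as a doublet in the main results, and doublets may remain among the cells. Why so few were called was not tested. Clusters were named from marker lists. For each marker log2((CPM + 100)/100) was taken as a fraction of its value in the highest cluster, and the fractions were averaged over the list. A marker under 100 CPM in every cluster counted as 0. A name needed at least 0.4, under 0.5 for every other class, at least 3 markers and at least 20 cells, and the 10 leading genes could not hold more markers of another class. These limits for naming were chosen with the data in view.

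Counts were summed per library and class or cluster and divided by its total UMIs to give CPM. Intervals at 95% are exact Poisson for CPM, exact conditional for ratios and exact Clopper-Pearson for shares. A 2-fold limit was applied to genes that had at least 50 CPM in 1 library (or class). Ratios and intervals were first tested on simulated data. Scaling by TMM used edgeR 4.0.16 under R 4.3.3, and the rest ran in Python 3.11.15 with pandas 2.3.3, scipy 1.17.1 and numpy 2.4.6. Besides all 10 genes, the text names up to 4 genes per list and class with the largest ratios, the 5 genes most correlated with each of 4 genes and, chosen after their values were seen, Ccl2, Bcl2a1b, Irak3, Fos, Hspa1a, S100a8, Ly6g and Apoe. The result for 1 gene of the target list is not reported here. Alternatives changed the cell filter, clustering, doublet treatment, scaling, weighting, class limits, CPM minimum, fold and thinning.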

Additional observations from a re-analysis of the deposited data

How the results depend on the processing

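No paired analysis was possible because each treatment is 1 library and the labels give no replicate numbers. In neutrophil-like cells the count of genes at least 2-fold lower in aCXCR2 went from 1 (Tnf) to 0 with TMM factors, with median-of-ratios factors, with only the clusters not mostly of 1 library (cluster 9), without cluster 0 and with equal weight per cluster; the last 2 were chosen after seeing the data. The count at least 2-fold higher went from 0 to 1 with TMM and 2 with median-of-ratios factors. The median log2 ratio of the 10 genes, 0.03 as reported, was 0.68 with TMM, 0.75 with median-of-ratios factors, -0.041 with a stricter cell filter, 0.17 at resolution 0.5, -0.16 at resolution 1.5, -0.24 with the 10 genes and pathway components used for clustering, -0.24 without the highest doublet scores, -0.20 in cluster 9 alone, 0.17 with unnamed clusters added, -0.15 with a neutrophil score of at least 0.5 (chosen after seeing the data) and -0.16 with equal weight per cluster. The median of all genes was negative in all but the 2 scalings, at which it was 0.30 and 0.38. Other pathway genes at least 2-fold higher and lower, 3 and 3 as reported, were 13 and 1 with TMM and 15 and 1 with the other scaling. The numbers were 1 and 5 at resolution 1.5, with the pathway used for clustering and without the highest doublet scores, 0 and 5 in cluster 9, 1 and 1 with equal weight, and 7 and 7 at 1.5-fold. Those lower were 5 at a minimum of 20 CPM and 1 without cluster 0. The split of all genes between higher and lower, 92 and 395 as reported, was 385 and 32 with TMM factors and 454 and 24 with median-of-ratios factors. It was 205 and 1219 of 3107 genes at 1.5-fold, 95 and 35 of 3225 with equal weight, and 44 and 76 of 2948 in cluster 9.

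In macrophage-like cells Tnfaip3 was under 2-fold, and the count 0, with the stricter cell filter, with the mean of per-cell CPM and with equal weight per cluster. The count was 2 in clusters not mostly of 1 library and 5 at 1.5-fold. The median of the genes, 0.71 as reported, was 0.52 with the stricter filter, 0.47 with per-cell CPM and 0.26 with equal weight. Other pathway genes higher and lower, 13 and 2 as reported, were 8 and 4 with per-cell CPM and 20 and 5 at 1.5-fold. Those higher were 3 with equal weight, and those lower 1 in clusters not mostly of 1 library. Among all genes in this class, 307 were higher and 178 lower at 1.5-fold (of 2856), and 94 and 80 with per-cell CPM (of 2894). The numbers were 26 and 32 with equal weight (of 2790) and 77 and 26 in clusters not mostly of 1 library (of 2766). Over all kept cells, 2 genes (Nfkb1 and Relb) were higher and 0 lower by 2-fold or more with TMM, as with median-of-ratios factors. At 1.5-fold 1 was higher. Among all genes there, 590 of 3477 were higher with TMM, 669 of 3500 with median-of-ratios factors and 415 of 3549 at 1.5-fold. The median there, 0.22 as reported, was 0.75 and 0.81 with the 2 scalings, -0.0029 with the stricter filter, 0.0038 with per-cell CPM and 0.15 without barcodes found in both libraries (chosen after seeing the data). Apart from the scalings, the cause of these moves was not tested. Single-gene values under these alternatives moved by less than their counting interval in 322 of 660 cases. Depth limits Tnf most in photoreceptor-like cells of aCXCR2, at 2 UMIs, and the ratios within clusters 4, 6, 7 and 0, in each of which 1 library has under 71 cells.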

Other observations

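Barcodes left out by the cell filter, 1659 in NRS (median 24.0% mitochondrial UMIs) and 725 in aCXCR2 (47.0%), held the 10 genes at levels of their own. Nfkbia stood at 255 CPM in those of NRS and 650 CPM in those of aCXCR2, Tnfaip2 at 104 and 282 CPM, and Tnf at 24.9 and 49.3 CPM. Tnfaip3 was at 73.0 and 119 CPM.

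The unnamed clusters were not part of any class. In cluster 2, led by Itpr2, Gadd45b and Ccrl2 (877 NRS and 53 aCXCR2 cells), Tnf was at 199.7 CPM in NRS and 163 in aCXCR2, Nfkbia at 905 and 722 CPM and Tnfrsf1b at 434 and 411 CPM. Nfkb2 was at 81.1 and 35.9 CPM there. In cluster 12, which held both rod and neutrophil transcripts (409 and 69 cells), Tnf was at 175 and 105 CPM and Nfkbia at 1195 and 1452 CPM. Nfkbiz was at 131 and 282 CPM and Tnip1 at 147 and 288 CPM there.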
